A study of Mus musculus with 20 samples.

Results

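The genes described here encode the dystrophin-glycoprotein complex, chosen by a fixed list of 8 symbols (Dmd, Utrn, Dag1, Sgca, Sgcb, Sgcd, Dtna and Lama2) that was matched to the Ensembl identifiers of the count matrix. All 8 were found among its 55401 genes, and all 8 were among the 13626 genes that passed the filter on low counts. The complex spans the muscle fibre membrane and ties the cytoskeleton inside the fibre to the matrix around it. Dystrophin (Dmd) binds actin inside and dystroglycan (Dag1) in the membrane, dystroglycan in turn binds laminin-211 (whose alpha chain is Lama2) outside, and the sarcoglycans (Sgca, Sgcb, Sgcd) hold this axis together. Utrophin (Utrn) is the autosomal relative of dystrophin, found in the adult mainly at neuromuscular and myotendinous junctions and in vessels, and alpha-dystrobrevin (Dtna) anchors signalling proteins to the complex. Loss of some of the members causes muscular dystrophies, in which the membrane tears under contraction.

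RNA of the gastrocnemius muscle, a mixed but mostly fast calf muscle, was sequenced in 20 mice of 24 months, all on the C57BL/6 background. Of these, 10 were HK-treated and 10 untreated, with 5 males and 5 females in each group. HK is Haenkenium, an extract of the sage Salvia haenkei, given in the drinking water at 0.5 mg/kg/day from 20 months of age, and no other treatment or allele is named for either group. The titles of the 5 treated females begin with HF and not HK, and their treatment label, which names the extract, placed them with the HK-treated mice. The mice were sequenced as 2 experimental batches, 8 mice (replicates 1 and 2 of each group and sex) in batch 1 and 12 mice (replicates 3 to 5) in batch 2, so that each batch held both treatments and both sexes. The study housed its mice in more than one animal facility, and the facility of a given mouse is not given in the sources used here. Each library is 1 mouse, and whole muscle was used, so that fewer cells of a type and less RNA per cell cannot be told apart.

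The total count per mouse lay between 13900180 and 30469644, with medians of 20950853 in batch 1 and 15766065.5 in batch 2. The markers of muscle fit the tissue label: the summed level of 6 muscle fibre genes (Acta1, Ckm, Mb, Ttn, Neb, Des) was 65800 to 84100 counts per 1000000 (CPM) in every mouse, and none of them was at 0. The mouse called untreated male 3 had the highest summed level of 7 slow fibre genes, 6330 CPM, against a mean of 1690 CPM over all 10 males and 1980 CPM in the next highest male.

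The members are scattered over the genome and differ widely in size. On GRCm38, Dmd covers chrX:82948870-85206141 on the plus strand, a span of 2257272 bases with 79 exons in its longest transcript. Utrn lies at chr10:12382188-12869365, Dag1 at chr9:108204634-108263958, Sgca at chr11:94962791-94976327, Sgcb at chr5:73632749-73647790, Sgcd at chr11:46896253-47988969 and Lama2 at chr10:26980036-27619758, all on the minus strand. Sgca is the smallest, with a span of 13537 bases, and Sgcd, whose longest transcript has only 2450 bases, is spread over 1092717. The exons of Dtna and Lama2 overlap antisense genes by 90 and 631 bases, and the exons of the other 6 members overlap no other gene.

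The bases upstream of the start sites of Dmd, Dag1 and Sgca are shown because Dmd names the complex and because Dag1 and Sgca are the members that differed between the sexes. Each is the 250 bases before a RefSeq start site (GRCm38.p6), for Dmd and Dag1 the first of 2 in the table, read 5′ to 3′ on the gene's strand, from chrX:82948620-82948869, chr9:108263959-108264208 and chr11:94976328-94976577. Capitals mark matches on either strand to the E-box (CANNTG), which myogenic factors such as MyoD bind, to the MEF2 motif and to the CArG box of serum response factor.
Dmd: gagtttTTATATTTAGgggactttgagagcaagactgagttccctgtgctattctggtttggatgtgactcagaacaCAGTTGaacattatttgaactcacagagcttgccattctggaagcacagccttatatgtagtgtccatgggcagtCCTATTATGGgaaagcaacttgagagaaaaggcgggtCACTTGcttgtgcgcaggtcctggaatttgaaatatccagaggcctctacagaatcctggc
Dag1: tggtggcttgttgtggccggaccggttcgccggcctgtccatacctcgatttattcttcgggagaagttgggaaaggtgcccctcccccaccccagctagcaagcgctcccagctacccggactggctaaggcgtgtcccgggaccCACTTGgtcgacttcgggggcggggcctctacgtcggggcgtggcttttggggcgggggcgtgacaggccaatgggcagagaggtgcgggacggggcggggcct
Sgca: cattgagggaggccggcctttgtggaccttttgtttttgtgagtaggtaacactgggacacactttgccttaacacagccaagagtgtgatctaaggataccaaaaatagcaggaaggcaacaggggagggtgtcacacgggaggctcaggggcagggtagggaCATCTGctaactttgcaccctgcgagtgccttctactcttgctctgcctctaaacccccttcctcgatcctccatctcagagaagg
The Dmd window held a MEF2 match at position -244, E-boxes at -173 and -61 and a CArG match at -98, all counted from the start site. The MEF2 match overlapped a TATA motif (TATAAA on the other strand) at -245. MEF2 and CArG matches were found in 2.92% and 1.47% of the 32851 mouse windows of this length, and E-boxes in 66.2%. Dag1 had a single E-box at -104 and 3 GC boxes (GGGCGG), at -87, -54 and -11, a motif that 32.7% of windows held. Sgca had 1 E-box at -86. The half-site of the androgen receptor (AGAACA), held by 16.1% of windows, was found at -179 in Dmd, and these letters were in neither the Dag1 nor the Sgca window. The window of the other Dmd start site, chrX:85048045-85048294, held no E-box, MEF2 or CArG match, 3 GC boxes (at -52, -18 and -14) and an androgen half-site at -137. That of the other Dag1 start site, chr9:108263816-108264065, overlapped the first and held the same E-box and GC boxes. A match is a description of letters and not of binding.

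Levels can be compared between genes only per length, and CPM per kilobase (kb) of the union of a gene's exons was used for this. Sgca was the most abundant member, at 95.4 ± 9.04 CPM per kb (SD, n = 20), a level above that of 97.7% of the tested genes. Its lowest mouse, at 78.4 CPM per kb, was above the highest mouse of any other member. Dag1 followed at 45.3 ± 4.54 and Sgcb at 34.1 ± 3.17 CPM per kb. Their ranges overlapped, from 35.8 to 53.7 for Dag1 and from 26.1 to 39.0 for Sgcb, but Dag1 was higher than Sgcb in 19 of 20 mice.

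The cytoplasmic members were lower. Dtna had 7.97 ± 0.954 and Dmd 6.29 ± 1.23 CPM per kb (SD, n = 20), with Dtna above Dmd in 19 of 20 mice. At the bottom stood Lama2 with 2.28 ± 0.497, Sgcd with 2.19 ± 0.698 and Utrn with 1.56 ± 0.357 CPM per kb. Lama2 and Sgcd could not be ordered, as Lama2 was the higher of the pair in 10 of 20 mice, while Sgcd was above Utrn in 17 of 20. The order depends on the length used. Per kb of the longest protein-coding transcript, an alternative added after the data were seen, Dtna was at 21.4, Dmd at 10.1 and Sgcd at 7.39 CPM per kb, so that Sgcd stood above Lama2 at 3.88, and Utrn stayed last at 2.16.

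**Figure D1:**
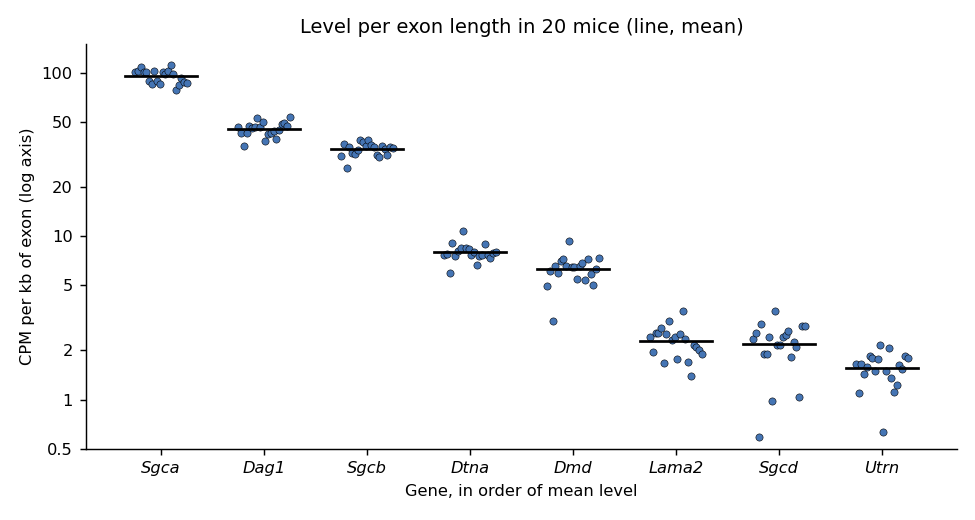
Level of each member per kb of exon in each of the 20 mice (points; log axis) with the mean as a line. Sgca at 95.4, Dag1 at 45.3 and Sgcb at 34.1 CPM per kb stand above the other 5 members, whose means run from 1.56 to 7.97; Sgcd reaches down to 0.587 in 1 mouse.

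The study asked whether HK changes the muscle of old mice, and the first comparison therefore set HK-treated against untreated mice. No member passed the test, 3 were estimated higher and 5 lower in HK-treated mice, and none reached an unadjusted p of 0.05. This was read against a background in which 0% of the 13626 genes passed an adjusted p of 0.05 with edgeR's quasi-likelihood test and 6.13% had an unadjusted p below 0.05, 2.78% higher and 3.35% lower with HK. DESeq2 called 7 genes, limma's voom 0 and edgeR with no filter on low counts 502, no member among them. Over the members the log2 fold changes had a median of -0.03, against 0.00 over all genes tested. In simulated data of this design, 99 tested genes were changed by 0.5 on the log2 scale and 99 by 1, all at once. Of these, 59.6% and 87.9% were recovered. The adjusted p depends on how many genes change, and with HK the lowest over all genes was 0.356. These shares are therefore not the power to detect a change in a member.

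The member with the narrowest interval was Sgca, alpha-sarcoglycan, whose expression is largely limited to striated muscle. Its CPM ran from 136 through a median of 166 to 193 in HK-treated mice, and from 148 through 175 to 190 in untreated mice. The groups overlapped nearly throughout, and the log2 fold change was -0.04 (95% interval -0.13 to 0.04, adjusted p = 0.867). Dag1 had 244, 283 and 342 CPM as the lowest, median and highest value with HK, against 228, 295 and 334 without, a log2 fold change of -0.02 (-0.13 to 0.09, adjusted p = 0.954). For Sgcb, beta-sarcoglycan, the values were 124, 141 and 157 CPM with HK and 106, 139 and 158 CPM without, and the log2 fold change was 0.02 (-0.11 to 0.15, adjusted p = 0.976). For these 3 membrane proteins, changes beyond 0.15 in either direction therefore lay outside the 95% intervals.

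Dmd ranged from 120 through 152 to 174 CPM in HK-treated mice and from 72.2 through 155 to 221 CPM in untreated mice. Its medians were alike and the untreated mice held both extremes; the log2 fold change was 0.00 (95% interval -0.25 to 0.25, adjusted p = 0.999). Dtna, which lies at chr18:23415135-23659715 on the plus strand, had 113, 130 and 151 CPM with HK and 101, 139 and 182 CPM without, and 9 of 10 mice given HK were lower than the untreated median, with a log2 fold change of -0.08 (-0.22 to 0.06, adjusted p = 0.853) that was -0.04 without untreated female 3 and -0.05 without untreated male 4. Sgcd, delta-sarcoglycan, was the least certain: its CPM was 8.50, 19.3 and 23.5 with HK and 4.85, 18.7 and 28.9 without, and its log2 fold change of 0.09 had an interval from -0.40 to 0.57 (adjusted p = 0.962) and ran from -0.03, without untreated male 3, to 0.22, without untreated female 4, when 1 mouse was left out.

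Utrn and Lama2 had the lowest estimates. Utrn ranged from 10.8 through 26.0 to 35.7 CPM with HK and from 18.8 through 28.4 to 36.8 CPM without, and 7 of 10 mice given HK were lower than the untreated median. Its log2 fold change was -0.18 (95% interval -0.46 to 0.11, adjusted p = 0.84), with -0.37 in batch 1, -0.04 in batch 2 and -0.09 without HK male 1. Lama2 had 22.7, 33.5 and 57.0 CPM with HK against 27.4, 40.4 and 49.4 without, with 8 of 10 mice given HK lower than the untreated median and a log2 fold change of -0.19 (-0.43 to 0.06, adjusted p = 0.83). In females alone it was -0.33 (unadjusted p = 0.0415, adjusted p = 1) and in males alone -0.05 (adjusted p = 0.963). Neither difference was larger than the spread between mice. Marker genes of endothelium were estimated lower in HK-treated mice for 6 of 6 genes and those of fibro-adipogenic cells for 7 of 7, none past the test. Their summed levels were 94.6 to 252 CPM with HK against 151 to 273 CPM without for endothelium, and 185 to 909 against 267 to 1410 CPM for fibro-adipogenic cells. The part of these cells in the values of Utrn and Lama2 was not tested here.

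**Figure D2:**
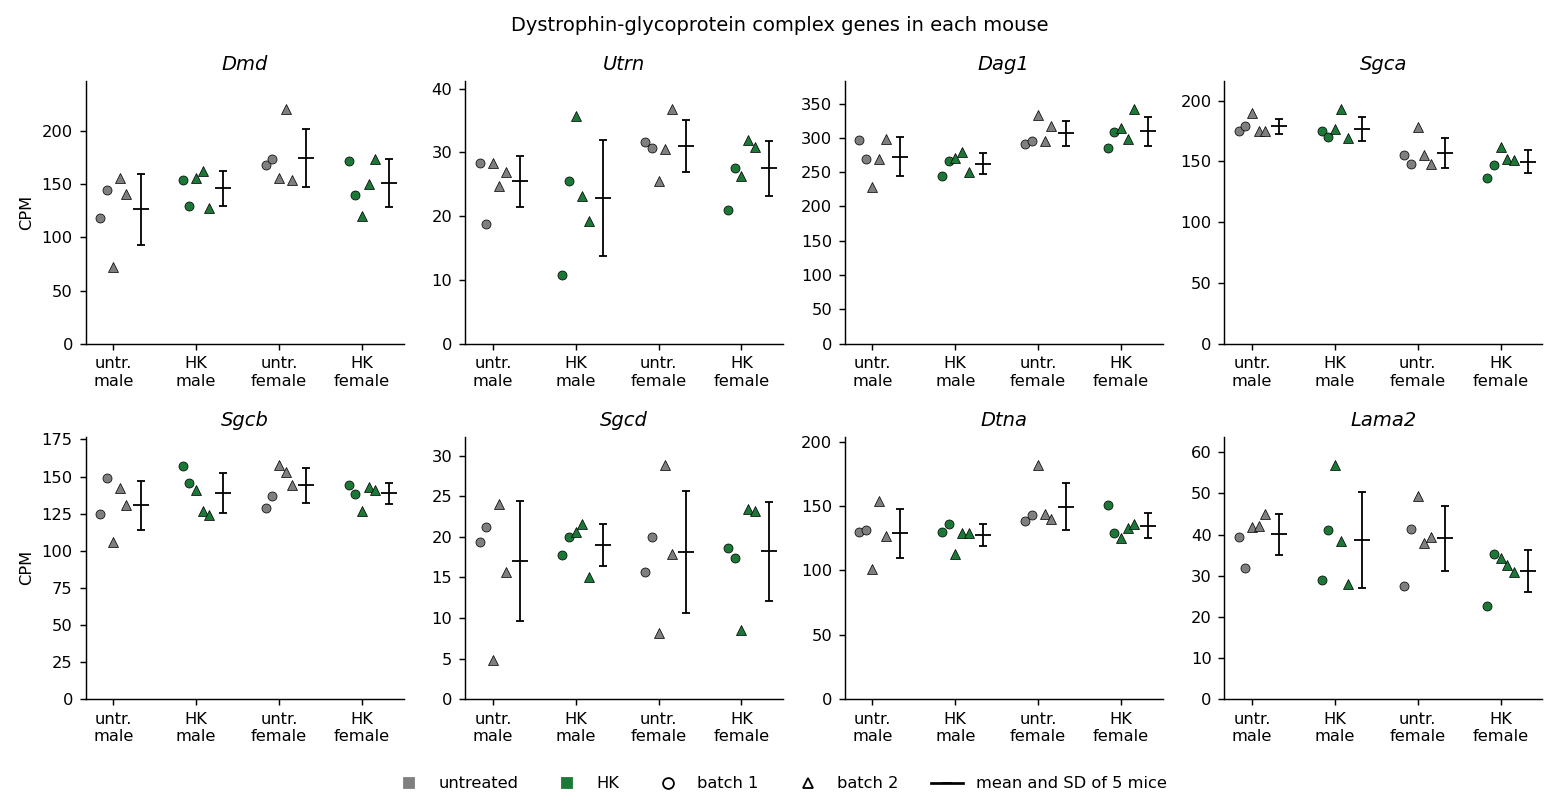
CPM of each member (vertical axes, from 0) in each mouse by treatment and sex; circles are batch 1, triangles batch 2, and the bars give the mean and SD of 5 mice. HK-treated and untreated mice overlap for every member, males and females separate most for Dag1 and Sgca, and untreated male 3 is low in Dmd (72.2) and Sgcd (4.85).

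Whether HK acted differently in males and females, or in the 2 batches, was tested by interaction terms. No gene passed an adjusted p of 0.05 among 13800 tested for either term (0%; 3.5% and 3.01% at an unadjusted p below 0.05, by edgeR), and for none of the members did the HK effect differ detectably between the sexes. The largest estimate was that of Dmd, with a treatment-by-sex term of 0.41 (95% interval -0.07 to 0.89, unadjusted p = 0.0885, adjusted p = 0.998), which was 0.26 without untreated male 3. Dmd was at 118, 145, 72.2, 156 and 141 CPM in untreated males 1 to 5 and at 154, 130, 156, 163 and 128 CPM in HK-treated males. In females it was at 168, 174, 156, 221 and 154 CPM without and at 172, 140, 120, 150 and 174 CPM with HK. The groups overlapped in both sexes. The treatment-by-batch terms of the members lay between -0.17 for Sgcb and 0.32 for Utrn.

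The sexes differed in 2 of 8 members, and in opposite directions. Of all genes tested, 16.1% passed an adjusted p of 0.05 between males and females, 8.79% higher and 7.33% lower in males, so the share of members was close to the background. Sgca was higher in males. Its CPM was 175, 179, 190, 175 and 175 in untreated males 1 to 5 and 175, 170, 177, 193 and 169 in HK-treated males. In females it was 155, 148, 178, 155 and 148 without and 136, 147, 162, 152 and 151 with HK. Untreated female 3, at 178 CPM, was the only female within the range of the males, and all 10 males were above the female median of 151. The fold was 1.16 (95% interval 1.09 to 1.23; log2 fold change 0.22, SE 0.04, adjusted p = 0.000999, edgeR's quasi-likelihood test).

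Dag1, the laminin receptor of the complex, was lower in males. Its CPM was 297, 270, 228, 270 and 299 in untreated males and 244, 267, 271, 280 and 250 in HK-treated males. In females it was 291, 295, 334, 296 and 318 without and 286, 308, 314, 299 and 342 with HK. All 10 males were below the female median of 304 and 8 were below the lowest female. The ratio of males to females was 0.869 (95% interval 0.807 to 0.935; log2 fold change -0.20, SE 0.05, adjusted p = 0.00951).

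Both differences kept their direction within each batch but not always their call. Sgca had a log2 fold change between males and females of 0.25 in batch 1 (adjusted p = 0.0211) and 0.18 in batch 2 (adjusted p = 0.105). For Dag1 the values were -0.14 in batch 1 (adjusted p = 0.227) and -0.25 in batch 2 (adjusted p = 0.0576). Markers of other cells and fibres also moved with sex: 6 of 7 slow fibre genes, 4 of 5 adipocyte genes and 3 of 4 Schwann cell genes were called lower in males, against 7.33% of all genes, and the remaining gene of each list was also estimated lower. Of 9 fast fibre genes, 3 were called higher and 1 lower, and of 8 macrophage genes 7 were estimated higher (median log2 fold change 0.53) and 1 was called. All 6 endothelial genes were estimated lower (median -0.29), none called. The summed slow fibre level was 771 to 6330 CPM in males and 2510 to 4690 CPM in females, with untreated male 3 the 1 male above 1980 CPM. Without this mouse, an alternative added after the data were seen, 7 of 7 slow fibre genes were called lower in males, and their median log2 fold change went from -1.16 to -1.61, while 3 of 5 adipocyte and 2 of 4 Schwann cell genes were called lower and 2 of 9 fast fibre genes higher. The summed levels in males and females were 67.4 to 154 against 93.2 to 248 CPM for adipocytes and 20.8 to 89.8 against 45.5 to 124 CPM for Schwann cells. No marker of these lists was at 0 in all mice, and their part in the differences of Sgca and Dag1 was not tested.

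The other members did not pass the test between the sexes. Dmd, which is X-linked, ranged from 72.2 through 143 to 163 CPM in males and from 120 through 162 to 221 CPM in females, and 9 of 10 males were below the female median. Its log2 fold change was -0.26 (95% interval -0.51 to 0.00, adjusted p = 0.158), with -0.49 in untreated mice alone, -0.05 in HK-treated mice alone and -0.17 without untreated male 3. Utrn likewise had 9 of 10 males below the female median, with 10.8, 25.2 and 35.7 CPM in males against 21, 30.6 and 36.8 CPM in females and a log2 fold change of -0.28 (adjusted p = 0.169). Both were called when no filter on low counts was used, with adjusted p of 0.00236 for Dmd and 0.00425 for Utrn. The log2 fold change of Dmd was -0.26 in that fit too, but its SE was 0.07 against 0.12 with the filter. For Sgca the SE went the other way, to 0.07 from 0.04. Utrn also passed when HK male 3, its highest male at 35.7 CPM, was left out (log2 fold change -0.37, adjusted p = 0.049). In the other 19 fits with 1 mouse left out it did not pass, with adjusted p up to 0.26. Dtna had a log2 fold change of -0.15 (adjusted p = 0.147), Lama2 of 0.17 (adjusted p = 0.331; 0.10 without HK male 3, 0.02 in untreated and 0.32 in HK-treated mice alone), Sgcb of -0.07 (adjusted p = 0.49) and Sgcd of -0.02 (adjusted p = 0.971).

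**Figure D3:**
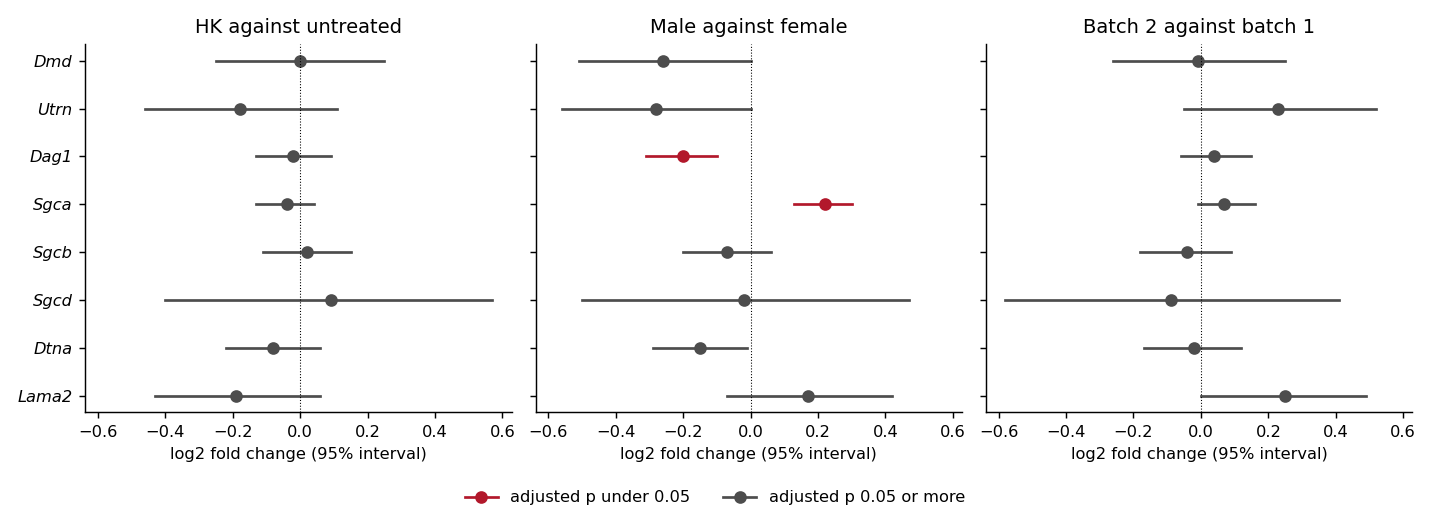
Log2 fold change of each member with its 95% interval for HK against untreated, males against females and batch 2 against batch 1; red marks an adjusted p under 0.05 and the dotted line no change. Among the 24 values only those of Dag1 (-0.20) and Sgca (0.22) between the sexes are red.

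The remaining genes of the complex were listed from general knowledge, and of the 10 reported here 7 could be tested, with Sgcz, Sntg1 and Sntg2 below the filter. Between the sexes 4 of these 7 passed, 3 higher and 1 lower in males, against 8.79% and 7.33% of all genes. The largest difference was in Dtnb, beta-dystrobrevin, a relative of Dtna that is better known from non-muscle tissues. Dtnb was at 2.28, 2.93, 2.92, 2.52 and 2.04 CPM in untreated males and 4.26, 4.26, 3.47, 3.31 and 2.53 CPM in HK-treated males. In females it was at 0.637, 0.416, 0.367, 0.630 and 0.410 CPM without and at 0.708, 0.484, 0.425, 0.817 and 0.650 CPM with HK. The sexes did not overlap, which was so for 0.939% of all genes in this direction, and the log2 fold change was 2.43 (SE 0.15, adjusted p = 2.98e-10). It held within batch 1 (2.54, adjusted p = 0.000257) and within batch 2 (2.32, adjusted p = 2.8e-05). The counts behind the female values were small, 6 to 22 per mouse.

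Cav3, the caveolin of the muscle membrane, was also higher in males, at 33.1 to 55.5 CPM (median 39.4) against 25.8 to 34.2 CPM (median 27.9) in females, with a log2 fold change of 0.48 (SE 0.07, adjusted p = 9.05e-05). Sspn, sarcospan, which sits with the sarcoglycans, had a log2 fold change of 0.29 (adjusted p = 0.00171). Sntb1, the beta-1 syntrophin, was lower in males, at 4.50 to 11.4 CPM (median 5.68) against 6.90 to 20.1 CPM (median 10.6), with a log2 fold change of -0.87 (SE 0.15, adjusted p = 0.000513). Within batches, Cav3 and Sntb1 passed in both, and Sspn in batch 1 (0.30, adjusted p = 0.0269) but not in batch 2 (0.28, adjusted p = 0.0748). Within single treatments, Cav3 passed in both untreated (0.54, adjusted p = 0.0238) and HK-treated mice (0.40, adjusted p = 0.0112). Sntb1 passed in HK-treated mice (-1.14, adjusted p = 0.00251) but not in untreated mice (-0.64, adjusted p = 0.111). Sspn passed in neither untreated (0.32, adjusted p = 0.0972) nor HK-treated mice (0.25, adjusted p = 0.101).

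Nos1, neuronal nitric oxide synthase, had a log2 fold change of -0.28 between males and females (adjusted p = 0.0921). Sgce, the epsilon-sarcoglycan of many tissues, had -0.10 (adjusted p = 0.63) and Sntb2 0.21 (adjusted p = 0.417). None of the 7 genes passed when HK was compared with no treatment. The lowest unadjusted p was that of Dtnb, 0.00715, with a log2 fold change of 0.43 and an adjusted p of 0.795, and the second that of Cav3 (-0.13, unadjusted p = 0.0955, adjusted p = 0.805). For the rest the log2 fold changes lay between -0.20 (Sntb1) and 0.14 (Nos1).

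**Figure D4:**
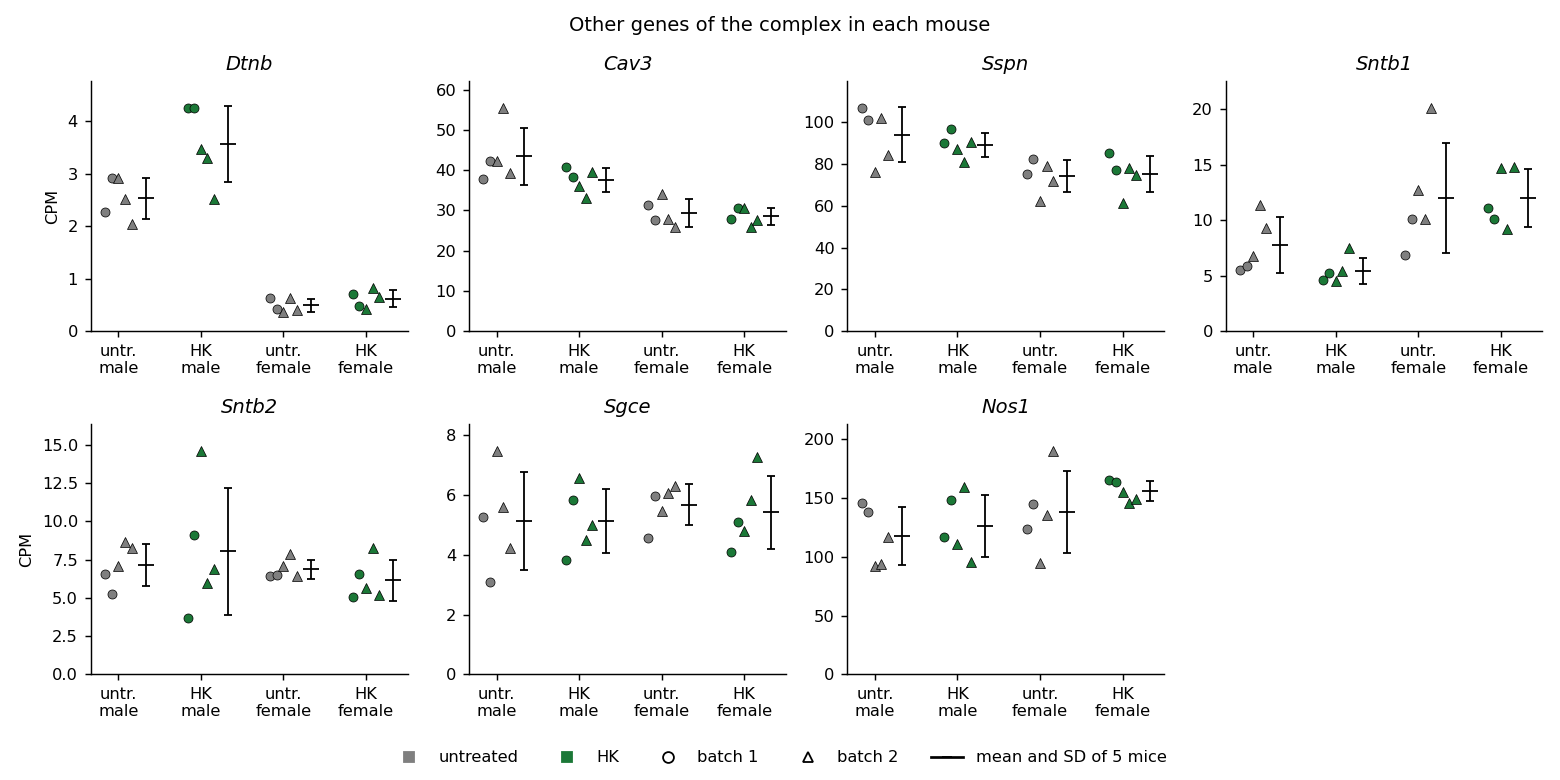
CPM of 7 other tested genes of the complex (vertical axes, from 0) in each mouse by treatment and sex; circles are batch 1, triangles batch 2, and the bars give the mean and SD of 5 mice. Males, at 2.04 to 4.26 CPM, and females, at 0.367 to 0.817 CPM, do not overlap for Dtnb, and Sntb1 is lower in males.

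Dystroglycan binds laminin only through a sugar chain built by a series of enzymes, and 15 of their tested genes are reported here. None of the 15 passed with HK, where 8 were estimated higher and 7 lower (median log2 fold change 0.01), and the lowest p values were those of Dpm1 (0.23, adjusted p = 0.795) and B3galnt2 (0.15, adjusted p = 0.805). Between males and females B3galnt2 had a log2 fold change of -0.21 (adjusted p = 0.0926) and Dpm3 of 0.22 (adjusted p = 0.141).

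Of 11 other genes of the basement membrane, 10 were estimated lower and 1 higher with HK (median log2 fold change -0.18) and none was called, led by Nid1 (-0.33, adjusted p = 0.83) and Lama4 (-0.30, adjusted p = 0.832). Between the sexes Lamb2, the beta-2 laminin of neuromuscular and vascular basement membranes, was lower in males by -0.63 (SE 0.06, adjusted p = 9.1e-07), and it passed in batch 1 (-0.76, adjusted p = 0.00187) and in batch 2 (-0.55, adjusted p = 0.000451). Lamc1 did not pass (0.23, adjusted p = 0.104). In the integrin and costamere list, the parallel link between fibre and matrix, 13 genes were tested and none passed with HK. Itga7, the laminin-binding integrin of muscle, had -0.19 (adjusted p = 0.805) and its partner Itgb1 -0.12 (adjusted p = 0.808). Ank3, an ankyrin that binds dystrophin, and Parva, an adaptor of integrin-linked kinase, were lower in males, with log2 fold changes of -0.30 (adjusted p = 0.0133) and -0.39 (adjusted p = 0.0362), and neither passed within a single batch. Other genes of this list passed in batch 1 alone, Synm at 0.55 (adjusted p = 0.00276; 0.03 in batch 2), Ank2 at -0.24 (adjusted p = 0.0423; -0.01) and Krt8 at -2.28 (adjusted p = 0.0482; 0.66 in batch 2). Without the 3 mice lowest in Sgcd, described below, Vcl (0.27, adjusted p = 0.0234) and Synm (0.32, adjusted p = 0.0262) passed. These 4 genes were chosen after their values were seen.

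The batches were compared in the same fit. None of the 8 passed the test of batch 2 against batch 1, in which 37.1% of all genes did (18.2% higher and 19% lower in batch 2), and their log2 fold changes ran from -0.09 for Sgcd to 0.25 for Lama2. The estimates for Lama2 (95% interval 0.00 to 0.49, adjusted p = 0.112) and Utrn (0.23, -0.05 to 0.52, adjusted p = 0.191) were the highest, and both were called when no filter was used, with adjusted p of 0.0098 and 0.0216. The SE of Lama2 was 0.08 in that fit, against 0.12 with the filter, at an estimate of 0.24. The value of Utrn was 0.12 without HK male 1, 0.07 in untreated and 0.41 in HK-treated mice alone. Of the other complex genes, Sspn (-0.18, adjusted p = 0.0247) was lower and Sntb1 (0.49, adjusted p = 0.019) was higher in batch 2. In the basement membrane list 6 of 11 genes were higher in batch 2, among them Nid1 by 1 (adjusted p = 0.0018). All 7 fibro-adipogenic markers and all 8 macrophage markers were higher too, with summed levels of 185 to 450 CPM in batch 1 and 327 to 1410 CPM in batch 2 for the former and 19.6 to 71.1 against 63.8 to 281 CPM for the latter.

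The members differed in how much they varied from mouse to mouse once batch, sex and treatment were removed. Sgca was among the steadiest genes, with a residual SD of 0.0768 on the log2 scale, smaller than that of all but 1.22% of the tested genes. Dag1 (0.109), Sgcb (0.143) and Dtna (0.158) were also below the median of all genes, 0.217. Lama2 (0.28), Dmd (0.31) and Utrn (0.342) were above it. Sgcd was the most variable, with 0.642, larger than that of 94.1% of the genes.

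Much of the spread of Sgcd came from 3 mice of batch 2. Untreated male 3 had 78 counts (4.85 CPM), untreated female 3 had 133 counts (8.14 CPM) and HK female 3 had 140 counts (8.50 CPM), while the other 17 mice lay between 15.1 and 28.9 CPM. In batch 1 the 8 mice lay between 15.7 and 21.2 CPM, and 5 of the 12 mice of batch 2 were above the highest of these. Dmd was low in untreated male 3, at 72.2 CPM, and was at 156 CPM in untreated female 3 and 120 CPM in HK female 3.

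How the members moved together over the 20 mice was measured by correlating their log2 CPM after batch and sex were removed. Of 28 pairs, 4 passed an adjusted p of 0.05 by permutation within batch and sex, all of them positive, although by Spearman's rho none did, with an adjusted p of 0.0887 for each of the 4. Dmd and Sgcd had Pearson's r = 0.823 (rho = 0.615, adjusted p = 0.0151). Without untreated male 3 and HK female 3, the mice farthest from the median of Dmd, r was 0.541 (permutation p = 0.0191). Within batch 1 no relation was detected (r = 0.0583, exact permutation p = 0.896), and within batch 2 r was 0.873 (permutation p = 0.001). The difference between the batches was not tested. Without the 3 mice named above r was 0.51 (unadjusted permutation p = 0.0439, adjusted p = 0.344). These mice were picked after the data were seen for their low Sgcd, so that leaving them out narrows the range of Sgcd.

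Dmd and Sgcb had r = 0.696 (rho = 0.571, adjusted p = 0.0151), with 0.646 in batch 1 and 0.837 in batch 2. Without the same pair of far mice r was 0.398 (permutation p = 0.0375), and without the 3 mice low in Sgcd it was 0.47 and no longer passed (adjusted p = 0.344). Sgcb and Dtna had r = 0.628 (rho = 0.535, adjusted p = 0.0332), with 0.213 in batch 1 and 0.734 in batch 2, and 0.520 without untreated male 3 and HK male 1, the mice farthest out in Sgcb. Without the 3 mice low in Sgcd it fell to 0.17 and did not pass (adjusted p = 0.702). Utrn and Lama2 had r = 0.585 (rho = 0.603, adjusted p = 0.0332), with 0.682 in batch 1 and 0.553 in batch 2 and 0.514 without the 2 farthest mice. This pair passed without the 3 mice low in Sgcd (r = 0.75, adjusted p = 0.0115) but not with treatment removed as well (r = 0.53, adjusted p = 0.164). Each r was also read against all tested genes. An r at least as high was reached by 0.235% of genes with Dmd and 0.433% with Sgcd for the first pair, and by 1.52% with Dmd and 0.683% with Sgcb for the second. For Sgcb and Dtna the shares were 1.81% and 0.895%, and for Utrn and Lama2 7.81% and 3.13%. Sgca and Dag1 formed no pair that passed.

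**Figure D5:**
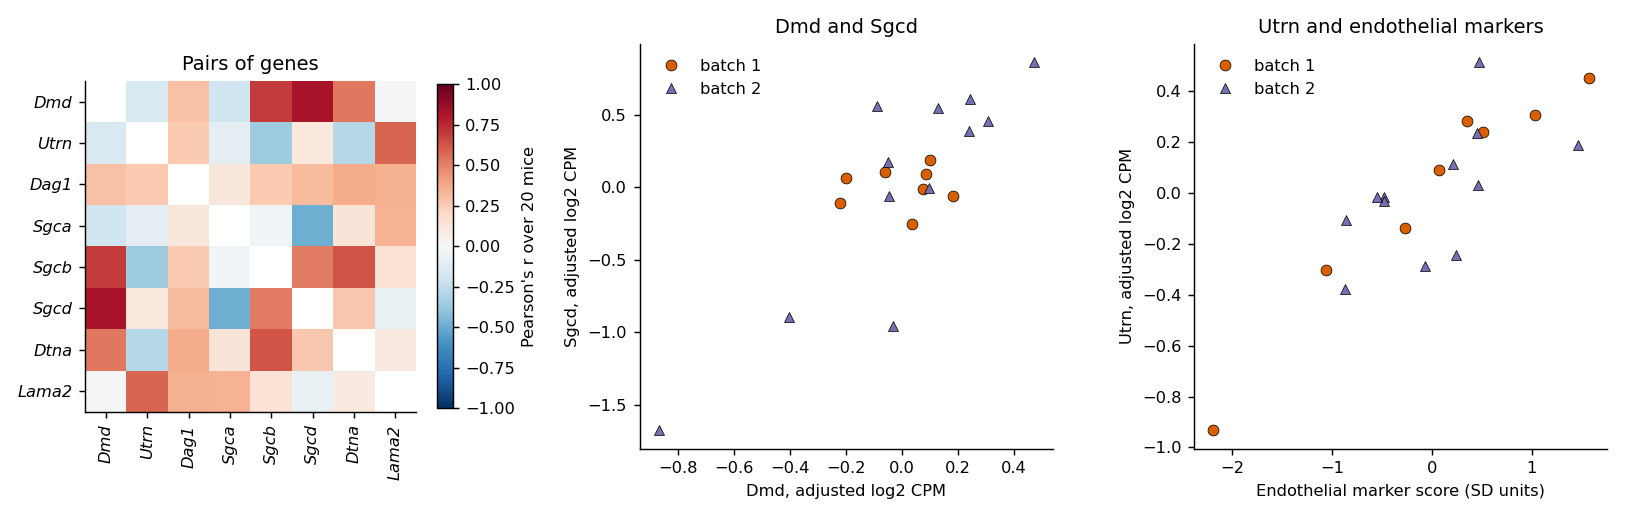
Left, Pearson's r of each pair of members over 20 mice (colour; red positive, blue negative); middle, Dmd against Sgcd; right, Utrn against the endothelial marker score, all as log2 CPM or scores with batch and sex removed. Dmd and Sgcd have r = 0.823, with 0.873 in batch 2 (triangles) and 0.0583 in batch 1, and Utrn and the endothelial score have r = 0.842.

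The members were also set against scores of each mouse, in 48 relations. A marker score was the mean, over a list, of the adjusted log2 CPM with each gene scaled to its SD. Utrn moved with the endothelial markers (r = 0.842, rho = 0.845, adjusted p = 0.00792 by permutation), with 0.972 in batch 1, 0.578 in batch 2 and 0.699 without the 2 mice farthest from the median score. It also followed the fibro-adipogenic markers (r = 0.831, rho = 0.776, adjusted p = 0.00792; 0.859 in batch 1, 0.802 in batch 2 and 0.781 without 2 mice). Lama2 followed the fibro-adipogenic markers (r = 0.613, rho = 0.639, adjusted p = 0.0337; 0.876, 0.370 and 0.526). HK male 1 had the lowest score on both lists, -2.19 and -1.82, and the lowest Utrn, 10.8 CPM.

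Dmd, Sgcb and Sgcd went against the slow fibre markers. For Dmd r was -0.799 (rho = -0.630, adjusted p = 0.0149), for Sgcb -0.721 (rho = -0.630, adjusted p = 0.045) and for Sgcd -0.766 (rho = -0.639, adjusted p = 0.00792). Untreated male 3 had a slow fibre score of 3.29. Without the 2 mice farthest from the median score the r values were -0.508, -0.513 and -0.520 (permutation p = 0.0153, 0.0896 and 0.00527). In batch 1 they were -0.531, -0.893 and -0.193, and in batch 2 -0.837, -0.700 and -0.825. Dmd also went against the endothelial markers (r = -0.576, rho = -0.558, adjusted p = 0.0234), opposite to Utrn, with -0.686 in batch 1, -0.726 in batch 2 and -0.612 without 2 mice.

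A score of RNA composition moved with the same genes. It was the mean over 568 genes, the members left out, whose longest transcript has over 2000 bases and a GC content under 40%. Its r was 0.822 with Dmd (rho = 0.711, adjusted p = 0.00792), 0.683 with Sgcb (rho = 0.547, adjusted p = 0.0289) and 0.671 with Sgcd (rho = 0.466, adjusted p = 0.029). Without the 2 mice farthest out these r values were 0.594, 0.462 and 0.398 (permutation p = 0.0146, 0.0801 and 0.0384). In batch 1 they were 0.931, 0.674 and 0.211, and in batch 2 0.847, 0.687 and 0.814. The GC content of the 3 genes is 41.5%, 43.9% and 38.7%, so that only Sgcd is under the 40% limit of the score. The other members are at 46.1% (Dtna), 47.7% (Lama2), 47.9% (Utrn), 52.8% (Dag1) and 56.7% (Sgca). A score over 739 genes with a longest transcript of over 8000 bases passed with no member. Its r was 0.52 with Dmd (adjusted p = 0.239; 0.0806 without the 2 mice farthest out) and 0.58 with Sgcd (adjusted p = 0.0797; 0.312). The part of base composition in the joint movement of Dmd, Sgcb and Sgcd was not tested.

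The genes most like each member over the 20 mice were found by Pearson's r of the same adjusted values. They were sought among the tested genes with a name, with Gm and Rik symbols and genes without a symbol passed over. For Dmd they were Nbeal1 (0.917), Taok1 (0.911) and Ranbp2 (0.902), and for Sgcd Atm (0.957), Usp9x (0.955) and Dmxl1 (0.947). For Utrn they were Ptprb (0.932), Hspg2 (0.93) and Jcad (0.929), and for Lama2 Plau (0.861), Svep1 (0.855) and Cdr2l (0.855). Sgcb was closest to Nampt (0.878), Cd164 (0.87) and Wdr44 (0.858), and Dtna to Kpnb1 (0.833), Tm9sf2 (0.819) and Lmo7 (0.813). Dag1 was closest to Ctr9 (0.845), Wdr36 (0.787) and Cse1l (0.766), and Sgca to Cnksr1 (0.808), Trim54 (0.808) and Brf1 (0.796). No member was among the 3 genes closest to another, and 18 of the 24 genes were still among the closest 3 when the treatment was removed as well.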

How the data were processed

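RNA-seq of the gastrocnemius of 20 mice was analysed, with treatment, sex, batch and replicate taken from the labels (for treated females, whose titles begin with HF, the treatment label). RNA was depleted of rRNA and sequenced on an Illumina instrument with a 75-cycle kit. Per the labels and the methods, the authors aligned the reads with STAR 2.6.1c to GRCm38.p6 (GENCODE M25) and deposited raw counts per gene, whole numbers without normalization or batch correction. Which counter was used, whether it used strand and how it handled multi-mapping reads was not given in the sources used here. Without known strand use, reads of Dtna and Lama2 and of their antisense partners cannot be told apart.

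Counts were tested with edgeR 4.0.16 in R 4.3.3: TMM normalization, filterByExpr (13626 genes), quasi-likelihood F test, batch, sex and treatment as terms, Benjamini-Hochberg adjustment over all genes, threshold 0.05, two-sided. Standard errors were taken from the fold change and its F statistic. DESeq2 1.42.0 and limma 3.58.1 (voom) were alternatives, with leaving out each mouse, single batches, sexes or treatments, another normalization and no filter. CPM used TMM-scaled library sizes of the tested genes. Correlations used log2 CPM with a prior count of 2, adjusted for batch and sex, and 100000 permutations within batch and sex, two-sided (exact within batch 1). Exon lengths and positions came from GENCODE M21, also on GRCm38, which matched 55141 of 55401 identifiers. Upstream windows of 7 of 8 members were read from a RefSeq table (GRCm38.p6). The edgeR test was tried on simulated counts. Plots used matplotlib 3.10.9.

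Members and gene lists were chosen with earlier results of these data known. The lists were the other genes of the complex, dystroglycan glycosylation, basement membrane, integrin and costamere, membrane repair and cell markers. Of these lists 3 genes are not reported here and stand in no count of their lists, whatever their values. Named were all members, every other gene of the complex, and from each list the 2 genes with the lowest p for HK and the 2 for sex plus those past the threshold up to 4. Also named were the 3 genes most like each member, with Gm and Rik symbols and genes without a symbol passed over. Further genes named in the comparison of batches were chosen after their values were seen. No library was a copy of another: between mice of 1 group, sex and batch the chi-square of the counts was 8.77 to 54.8 times its degrees of freedom. Young mice were not analysed here.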

Additional observations from a re-analysis of the deposited data

Results flagged for a closer look

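Each member was looked at within the 4 groups of 5 mice for a mouse far from the others (Dixon's gap over range, critical value 0.71), 32 tests in all, of which chance flags about 1 in 20. Sgca in untreated male 3 was at 190 CPM, with the nearest mouse at 179 and a gap of 0.711 of the range. Untreated female 3 stood apart in Sgca, at 178 CPM with the nearest mouse at 155 (0.748), and in Dtna, at 182 CPM with the nearest at 144 (0.865). Both mice are among the 3 with low Sgcd. The calls of Sgca and Dag1 between the sexes held without these 3 mice, with log2 fold changes of 0.24 (adjusted p = 0.000186) and -0.16 (adjusted p = 0.0241).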

How the results depend on the processing

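No member passed the test of HK in any of the alternatives run, and Sgca and Dag1 passed between the sexes with every single mouse left out, with DESeq2, with voom, with DESeq2's size factors and without the 3 mice low in Sgcd. For each change named here the cause was not tested, except that single batches, sexes or treatments hold fewer mice.

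Over all genes, HK was called for 7 with DESeq2, 502 with no filter, 1 without HK female 1 and 0 to 1 over all mice left out. Without a filter 4 members were called between the sexes (Dmd -0.26, Utrn -0.28, Dag1, Sgca) and 2 between the batches (Utrn 0.23, Lama2 0.24). The SE between the sexes in this fit was 0.07 for both Dmd and Sgca, against 0.12 and 0.04 with the filter. Members called between the sexes numbered 1 in batch 1 (Sgca), 0 in batch 2, 1 in HK-treated mice (Sgca), and 0 in untreated mice, with 1316, 878, 651 and 489 genes called in these 4 fits, and 2 to 3 over the mice left out. Dag1 was at -0.14, -0.25, -0.24 and -0.19 there and Sgca at 0.18 in batch 2 and 0.17 in untreated mice. Genes called between batches numbered 1497 in females, 1476 in HK-treated and 2192 in untreated mice, against 5062 in all.

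Among the members, signs changed only for values that passed no test. For HK these were Dmd -0.01, Sgcd -0.04 and Dtna 0.01 in batch 1, Sgcb -0.04 and Dag1 0.01 in batch 2, Sgcb -0.06, Dmd -0.21 and Dag1 0.01 in females, Dmd -0.02 with batch alone or no covariates, and Dmd -0.05 and Sgcd -0.05 without the 3 mice low in Sgcd. Between the sexes they were Sgcb 0.07 and Sgcd 0.12 in batch 1 and Sgcb 0.00 and Sgcd 0.06 in HK-treated mice. Between batches they were Dmd 0.01 with DESeq2 and its size factors, Dmd 0.01 and Sgcd 0.03 in HK-treated mice, Dtna 0.03, Sgcd 0.04 and Sgcb 0.08 in females, Dag1 0.00 and Dmd 0.00 in males, Sgcb 0.03 and Dtna 0.05 in untreated mice, and Dmd 0.12 and Sgcd 0.18 without the 3 mice. Over the mice left out, HK values ran from -0.08 to 0.06 for Dmd, -0.05 to 0.00 for Dag1, -0.02 to 0.04 for Sgcb and -0.03 to 0.22 for Sgcd, the sex values from -0.13 to 0.10 for Sgcd and -0.37 to -0.21 for Utrn, and batch values from -0.07 to 0.06 for Dmd, -0.06 to 0.01 for Dtna and -0.21 to 0.01 for Sgcd. Without untreated male 3 the HK value of Dmd was -0.08 and that of Sgcd -0.03.

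Of the 28 pairs, 0 passed in batch 1, 1 in batch 2 and 1 without the 3 mice. With treatment removed as well, the pair of Utrn and Lama2 was lost. The replicate numbers did not pair the mice throughout (4 of 10 same-numbered pairs had a correlation of deviations over 0.1, range -0.425 to 0.174). All 4 were female, at 0.134 to 0.174, while the males lay between -0.425 and 0.0523, and pairs 1 and 2 of a sex share 1 value because each batch 1 group holds 2 mice. Untreated females 3, 4 and 5 were each most like the HK-treated female of the same number, which held for no other pair. With a replicate block 0 genes and 0 members were called for HK, and Lama2 had -0.20 (adjusted p = 0.787).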

Other observations

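Genes that reseal the torn fibre membrane were listed as well, as their task begins where the complex fails. None of the 7 tested passed for HK; 6 were estimated lower, and the median was -0.22 on the log2 scale, against 0.00 over all genes. Trim72, the muscle TRIM protein that nucleates the repair patch, had -0.22 (unadjusted p = 0.0249, adjusted p = 0.795), and the annexins Anxa2 and Anxa6 had -0.39 (unadjusted p = 0.0417) and -0.17 (unadjusted p = 0.0447), both with an adjusted p of 0.795. Between the sexes none passed, with Ano5 at -0.27 (adjusted p = 0.0704) and Anxa6 at 0.17 (adjusted p = 0.144). Both passed without the 3 mice low in Sgcd (-0.24, adjusted p = 0.0281, and 0.24, adjusted p = 0.00642), Anxa6 passed in batch 1 alone (0.29, adjusted p = 0.023) (0.09, adjusted p = 0.684 in batch 2) and Myof in batch 2 alone (0.93, adjusted p = 0.048), where its sign was opposite to that in batch 1 (-0.42, adjusted p = 0.566). Anxa1 (-0.56 and 0.31) and Anxa2 (-0.57 and 0.49) also differed in sign between batches 1 and 2, none of these past the test. In batch 2, 5 of the 7 were called higher, against 18.2% of all genes, Anxa2 by 1.21 (adjusted p = 0.000113) and Trim72 by 0.35 (adjusted p = 0.00715).

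Of the fibre markers, 7 of 7 slow fibre genes were estimated lower with HK (median -0.71 on the log2 scale), 5 of them at an unadjusted p below 0.05, as were 3.35% of all genes, and none past the adjusted threshold. Untreated male 3, with a slow fibre score of 3.29 against 0.972 in the next mouse, carried much of this: without it the median was -0.24 and 0 of the 7 had an unadjusted p below 0.05. With all mice, Myl2 had -0.65 (adjusted p = 0.795) and Tnni1 -0.79 (adjusted p = 0.795). Fast fibre genes had a median of 0.06 and muscle fibre genes of 0.03. The denervation and regeneration genes had a median of -0.49, with Myh3, the embryonic myosin, at -1.43 (unadjusted p = 0.00456, adjusted p = 0.795). Their summed level was 43.2 to 437 CPM in untreated and 50.8 to 119 CPM in HK-treated mice. Untreated male 5 had the highest score on this list, 2.07, with 1.04 in the next mouse. All 7 genes were called higher in batch 2. Medians were -0.22 for fibro-adipogenic, -0.25 for endothelial, -0.29 for macrophage, -0.03 for adipocyte, -0.13 for satellite cell, 0.32 for Schwann cell and -0.23 for smooth muscle and pericyte markers, with no gene past the test. Without untreated male 3 the medians were -0.12 for adipocyte and -0.03 for satellite cell markers.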
